A study of Mus musculus with 3 samples.

Results

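Nonclassical monocytes (NCMs) were taken from single-cell RNA-Seq of naive and transplanted mouse lungs by their transcripts. Of 22265 barcodes in 3 libraries, those with more than 200 genes and under 10% of unique molecular identifiers (UMIs, counted transcripts) from mitochondrial genes were kept. A kept cell was a member if it had at least 2 UMIs, and at least 0.15% of its UMIs, from the 6 marker genes Ace, Treml4, Eno3, Cd300e, Adgre4 and Cx3cr1. It also had to lack UMIs of Cdh5 and Cldn5 (endothelial cells) and of Cd3e, Cd79a and Ncr1 (T, B and NK cells). The complement genes C1qa, C1qb and C1qc had to be under 0.1% of UMIs, the classical monocyte genes Ly6c2, Vcan, F13a1 and Chil3 under 0.3%, and the neutrophil genes S100a8 and S100a9 under 2%. This rule gave 654 members, of which 62 were naive, 166 from 2 hours and 426 from 3 days after reperfusion. The members were chosen by their measured levels of these genes, so those levels describe the rule and support nothing else.

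NCMs are blood monocytes with low surface Ly-6C that patrol the inner wall of small vessels, and the lung capillaries hold many of them. They arise from classical monocytes (CMs) under the transcription factor NR4A1 and need the fractalkine receptor CX3CR1 for survival. They carry the Fc receptor encoded by Fcgr4 and the integrin LFA-1, clear particles and debris from the endothelium, and are known as a source of chemokines for neutrophils.

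The labels give the strain of all samples as C57BL/6J, and the methods list the CD45.1 mice of the study as a congenic B6 line. For the transplants, left lungs of CD45.2 donors were placed in CD45.1 recipients after cold ischemia (60 minutes, 4 °C) and warm ischemia (45 minutes, 28 °C), and were harvested after 2 hours or 3 days of reperfusion. Naive left lungs had no surgery. Cells of 2 mice were pooled for each library, and there was 1 library per condition. Cells were sorted for CD45.1, so in the transplants NCMs of the recipient were counted and those that came with the donor lung were not, and the series gives the same sort for the naive mice. Which CD45 allele the naive mice carried could not be settled. A naive mouse has cells of 1 origin only, so the naive NCMs may stand for all NCMs of a lung, and the transplant NCMs for those of the recipient. The donor and recipient differ in the CD45 allele, which the transcripts used here do not read out. The sources name both 3′ and 5′ kits, and which of them made which library could not be settled. The naive library was counted with Cell Ranger 7.1.0 and both transplant libraries with 6.0.0, as the file headers state. No test over mice is therefore possible, and reperfusion time cannot be told apart from library, mouse pool or, where the naive library is compared, counting software. All intervals are 95% intervals that cover counting error only.

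The depth differed widely. Members had a median of 11192.5 UMIs per cell in naive lungs, 1236.5 after 2 hours and 7043.5 after 3 days, with medians of 3293.5, 663.5 and 2496 genes. All kept cells showed the same order, with medians of 7729.5, 878 and 5797 UMIs. The members summed to 673927, 230897 and 3501413 UMIs, out of 28538529, 10749100 and 70750470 UMIs in the whole libraries. The median mitochondrial share of members was 1.90%, 1.95% and 2.57%. The 2-hour library thus carried the least information per cell. Between libraries 8, 1 and 23 barcodes were shared (naive with 2 hours, naive with 3 days, and 2 hours with 3 days), and 0 of them were members in both.

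The markers were compared as counts per 1000000 UMIs (CPM) of the members of a library. Ace, which encodes angiotensin-converting enzyme, was at 791 CPM in naive lungs, 1537 CPM after 2 hours and 871 CPM after 3 days. Adgre4, an adhesion G protein-coupled receptor of the F4/80 family, was at 1184, 333 and 661 CPM. Treml4, a TREM-like receptor that binds dying cells, was at 562, 307 and 484 CPM. Of all marker UMIs, Adgre4 carried the most in naive lungs (32.3%, against 20.2% after 3 days), and Ace carried 21.6%, 55.9% and 26.6%. Cd300e, an activating surface receptor, was at 347, 139 and 428 CPM, and Cx3cr1 was at 497, 247 and 488 CPM. Eno3, the muscle form of the glycolytic enzyme enolase, was at 283, 186 and 337 CPM. CMs of the same libraries had Cx3cr1 at 213, 45.6 and 169 CPM, and Eno3 and Cd300e at under 4 CPM. Endothelial cells, whose Cdh5 and Cldn5 the rule excluded, had Ace at 573, 738 and 428 CPM, with the other 5 markers at under 60 CPM. Of the members, 93.5% in the naive library and 98.8% at 3 days had UMIs of at least 3 of the 6 markers, with a median of 6 genes. At 2 hours this was 34.9%, with a median of 2 genes, so the label rested on fewer transcripts per cell there.

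**Figure D1:**
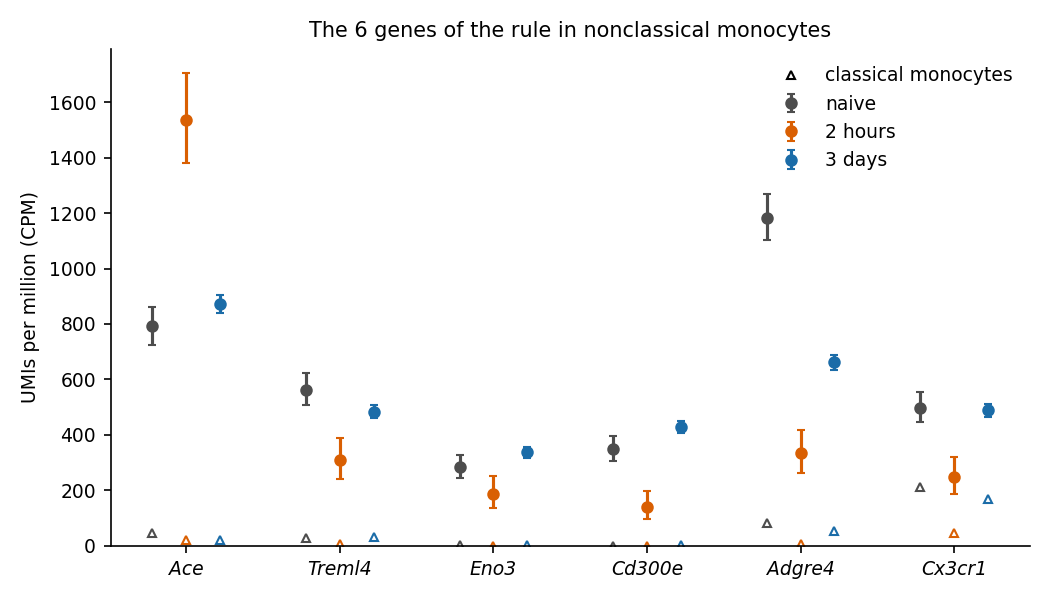
Levels of the 6 marker genes of the rule in CPM by library, for NCMs (filled circles, bars are 95% Poisson intervals) and CMs of the same library (open triangles). Ace was highest at 2 hours (1537 CPM), where the other 5 markers were at their lowest, and CMs lay below NCMs for every marker.

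The label was also checked on genes that no class rule used. Each member was given the cell class whose summed profile in another library made its counts most likely. In the naive library 60 of 62 members were nearest to NCMs with either other library as the reference. At 3 days 386 of 426 members (90.6%) were nearest to the NCMs of the naive library and 412 (96.7%) to those of the 2-hour library. At 2 hours 125 of 166 (75.3%) were nearest to NCMs of the naive library, 20 to CMs, 13 to neutrophils and 4 to NK cells. With the 3-day library as the reference 129 (77.7%) were nearest to NCMs. The label thus described nearly all naive and 3-day members, and about 3 in 4 members at 2 hours. The CMs of the 2-hour library were as uncertain, with 63 of 85 nearest to naive CMs.

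Transcripts of other cell types were sought with whole marker lists. The 10 neutrophil genes summed to 227 CPM in naive lungs, 3612 CPM after 2 hours and 973 CPM after 3 days, with S100a9 the most abundant at 2 hours. S100a8 and S100a9 together were at 81.6, 2824 and 767 CPM in NCMs, 250, 986 and 472 CPM in T cells and 112, 1177 and 647 CPM in B cells. Neutrophils made up 12.9%, 33.6% and 26.3% of kept cells. The rule held both genes under 2% of UMIs in each member, so their level in NCMs is a description. At 2 hours their UMIs lay in few cells, since 37 of the 166 members at 2 hours had at least 0.2% of UMIs from S100a8 and S100a9, against 0 of 62 and 19 of 426. These 37 members had a median of 1820 UMIs and the other 129 a median of 1119. Scrublet, which marks droplets that look like 2 cells, called 403 cells (3.92%) of the 2-hour library and 1 of its 166 members, and 0 and 5 members of the naive and 3-day libraries. Whether the 37 are doublets, took up neutrophil RNA or made it was not tested. Genes below whose level at 2 hours moved the most without these cells are given also over the 129 members below 0.2%, a limit chosen after the data had been seen, and the other genes mostly over all 166 members only.

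The lists of other cell types were summed in the same way. The 7 NK cell genes summed to 22.3, 264 and 26.0 CPM, with Gzma leading at 2 hours in 6 members. The T cell genes were at 13.4, 12.99 and 18.8 CPM and the B cell genes at 134, 47.6 and 129 CPM. The endothelial list, whose Cdh5 and Cldn5 are at 0 by the rule, was at 29.7, 56.3 and 31.1 CPM. Epithelial genes were at 10.4, 12.99 and 11.7 CPM, fibroblast genes at 0, 4.33 and 0.571 CPM and platelet genes at 7.42, 4.33 and 8.57 CPM. Alveolar macrophage genes were at 172, 316 and 148 CPM. The C1q macrophage list was at 2250, 1204 and 2281 CPM, most of it Apoe, which NCMs also express. Cd3e, Cd79a and Ncr1 are likewise at 0 by the rule, which also limited the C1q genes. The T, B, NK and C1q values were thus in part set by the rule.

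NCMs were 62 of 2628 kept cells in the naive library, or 2.36% (95% Clopper-Pearson interval 1.81% to 3.01%). At 2 hours they were 166 of 10283, or 1.61% (1.38% to 1.88%). At 3 days they were 426 of 8514, or 5.00% (4.55% to 5.49%). The share was highest at 3 days, with an interval clear of both others, and the naive and 2-hour intervals overlapped slightly. Counted among cells other than neutrophils the shares were 2.71% (2.08% to 3.46%), 2.43% (2.08% to 2.82%) and 6.79% (6.18% to 7.44%). The CMs numbered 40, 85 and 444 cells. Of both monocyte classes together, NCMs made up 60.8% (50.6% to 70.3%) in naive lungs, 66.1% (59.9% to 72.0%) at 2 hours and 49.0% (45.6% to 52.3%) at 3 days. Cells called NCMs thus outnumbered cells called CMs in the naive and 2-hour libraries and not at 3 days. The classes were called by separate marker rules with their own limits. The balance between them therefore holds for these rules only and is no measure of their ratio in the lung. Counts of sorted cells set these shares, and the number of cells per lung was not used here.

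**Figure D2:**
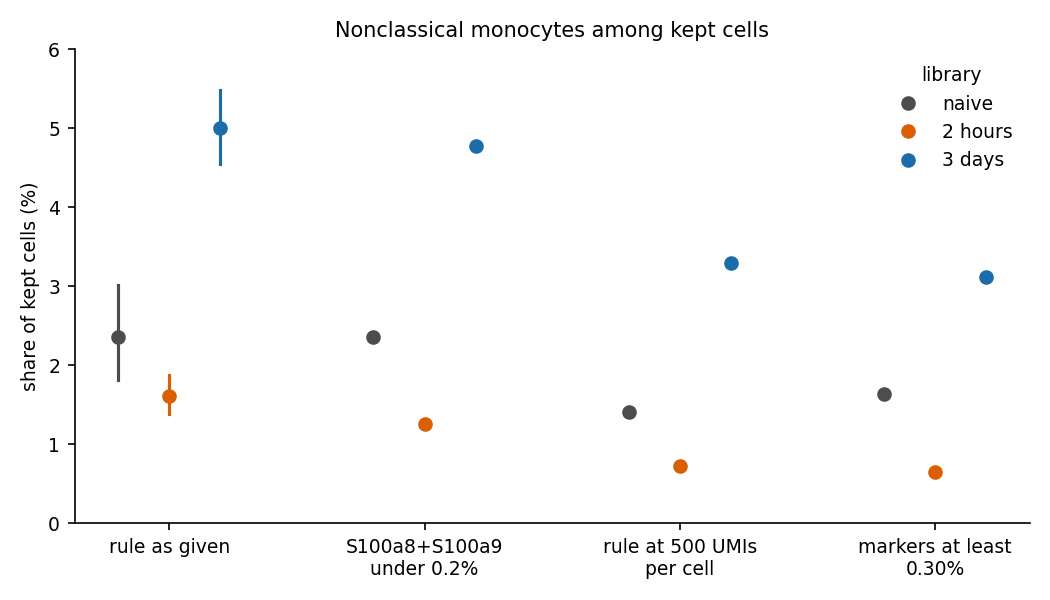
NCMs as a percentage of kept cells in each library under the rule as given (bars are 95% Clopper-Pearson intervals) and under changed rules. The 3-day library was highest under each rule plotted, at 5.00% under the rule as given against 2.36% and 1.61%.

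The marker limit of 0.15% cut through a continuous range. Just inside it, from 0.15% to 0.2%, there were 7 naive members, 49 from 2 hours and 48 from 3 days, and just outside, from 0.1% to 0.15%, there were 7, 37 and 64 cells. The members' marker share had medians of 0.3504%, 0.260% and 0.325%. Of cells past the marker limit, the lymphoid condition removed 8, 2 and 77, the S100a8 and S100a9 condition 7, 15 and 27, and the endothelial condition 12, 7 and 19. The shares at 2 hours were the most dependent on the limit, with 29.5% of members just inside it, against 11.3% in each other library. A single UMI is a larger part of a cell there, and the reason for this dependence was not tested.

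The transcriptome of NCMs was compared between libraries by log2 ratios of CPM, and a gene counted as past 2-fold if the ratio was at least 1 in size. Genes with at least 20 UMIs in 1 of the 2 libraries were used. From naive to 2 hours 344 of 4947 genes were higher past 2-fold (6.95%) and 1750 lower (35.4%), with a median of -0.53 over all genes. T and B cells of the same libraries had a median of -0.45 over these genes, so the shift of the median was shared by cells of another lineage. With each member thinned to 500 UMIs, fewer genes reached 20 UMIs and the balance was the opposite, with 205 of 707 genes higher and 107 lower at 2 hours. From naive to 3 days 867 of 8541 genes were higher (10.2%) and 1120 lower (13.1%), with a median of 0.09, and after thinning 354 of 1921 were higher and 215 lower. The shares over all genes given beside the lists below, and the counts of list genes, are those without thinning. A list count at 2 hours may thus stand out beside 6.95% and not beside the thinned 205 of 707. From 2 hours to 3 days 2305 of 8481 genes were higher (27.2%) and 590 lower (6.96%), with a median of 0.40, against 0.34 in T and B cells. After the ratio of T and B cells was subtracted, 370 genes were higher and 564 lower at 2 hours than in the naive library, and 731 higher and 551 lower at 3 days, leaving out genes with 0 UMIs in 1 of the libraries. The ratio of T and B cells (lymphocytes) therefore stands beside many, though not all, of the genes below.

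The identity genes of NCMs that the rule did not use were mostly within 2-fold in all 3 libraries. Their list of 20 genes summed to 15362 CPM in naive lungs, 13461 CPM after 2 hours and 17081 CPM after 3 days. At 2 hours 1 of 20 was higher past 2-fold and 4 were lower than in the naive library, with a median of -0.19, beside 6.95% and 35.4% of all genes. At 3 days 0 were higher and 1, Cd36, was lower, with a median of 0.18, beside 10.2% and 13.1% of all genes. Nr4a1, which encodes the factor that NCMs depend on, was at 1033 CPM in naive lungs, 996 CPM after 2 hours and 1180 CPM after 3 days. Its log2 ratio was -0.05 (-0.27 to 0.16) at 2 hours, so no difference was detectable there. Cebpb, the transcription factor C/EBPβ, was at 2514, 2928 and 2837 CPM, and Pou2f2, which encodes OCT2, was at 1519, 1026 and 1694 CPM. Klf2, a factor induced by blood flow that also restrains inflammation, was at 726, 1498 and 1064 CPM. Klf2 was higher at 2 hours by a log2 ratio of 1.05 (0.84 to 1.25), and by 1.67 in lymphocytes. Gngt2, a γ subunit of G proteins, was at 1209, 1122 and 1391 CPM.

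Among 20 transcription factors and survival genes of monocytes, 3 of 18 were higher and 3 lower past 2-fold at 2 hours, beside 6.95% and 35.4% of all genes. At 3 days 0 of 20 were higher and 1 lower, beside 10.2% and 13.1%. The 1 that was lower at 3 days was Bcl2, an inhibitor of cell death, at 518 CPM in naive lungs, 108 CPM after 2 hours and 184 CPM after 3 days. Its log2 ratios were -2.26 (-2.91 to -1.67) and -1.50 (-1.69 to -1.30), beside -1.25 and -1.62 in lymphocytes. Bcl2 was thus low in both transplant libraries in both lineages. Id2, a repressor of E proteins, was at 249, 546 and 460 CPM, with ratios of 1.13 (0.79 to 1.47) and 0.88 (0.65 to 1.12), beside 0.67 and 0.63 in lymphocytes.

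The 8 genes named as higher at 2 hours were ranked by the bound of their own ratio nearest to 0, among genes whose ratio was above that of lymphocytes by at least 1, and they included Cxcl2, Cxcl3, Il1rn and Il1r2. Cxcl2, a chemokine that attracts neutrophils, was at 44.5 CPM in naive lungs, 2928 CPM after 2 hours and 555 CPM after 3 days. Its log2 ratio at 2 hours was 6.04 (5.51 to 6.62), against 3.74 in lymphocytes and 5.28 in CMs. Over all members Cxcl2 was highest at 2 hours by far. Of its UMIs there, however, 93.6% lay in the 37 members with S100a8 and S100a9 RNA. In the other 129 members it was at 268 CPM, found in 15 cells, with a ratio of 2.59 (1.88 to 3.31) to the naive library. A few of these 15 cells carried much of it, with Cxcl2 at 0.706%, 0.503% and 0.472% of their UMIs. The cell at 0.503% had 0.193% of UMIs from S100a8 and S100a9, just under the limit. The naive level itself rested on few cells, since 1 naive member held 63.3% of the 30 Cxcl2 UMIs. Without that member, a setting added after the data had been seen, naive Cxcl2 was at 16.7 CPM and the ratio at 2 hours was 7.45 (6.60 to 8.46) over all members and 4.00 (3.02 to 5.11) over the 129. When every cell was thinned to 500 UMIs, Cxcl2 was found in 0% of naive members, 24.7% after 2 hours and 8.92% after 3 days, while lymphocytes had 0.592%, 6.41% and 6.71%.

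**Figure D3:**
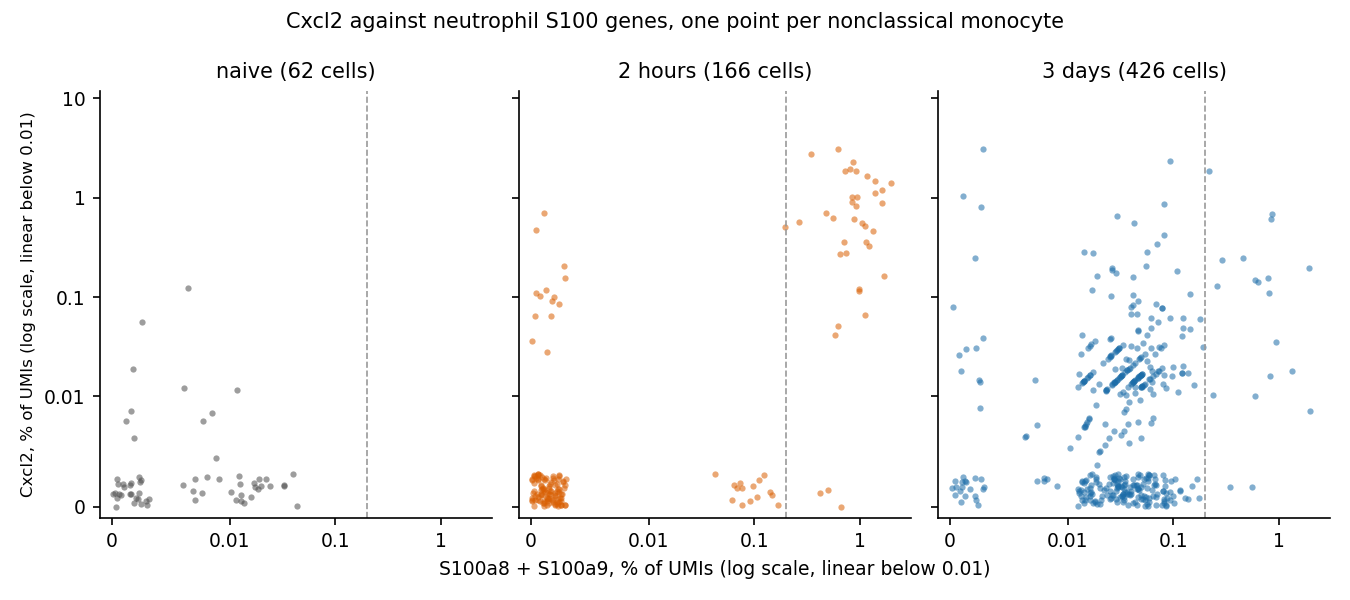
Each point is 1 NCM of the library named above the panel, with the share of its UMIs from S100a8 and S100a9 (percent, horizontal) and from Cxcl2 (percent, vertical), on log axes that are linear below 0.01%, where values of 0 are spread slightly so that points can be told apart. The dashed line marks 0.2%. At 2 hours the high Cxcl2 shares lay mostly to the right of the line, among 37 of 166 members.

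A further 6 of the 8 genes that the naming rule took as higher at 2 hours lay in the same cells. They were Cxcl3 (a neutrophil chemokine), Il1rn (the interleukin-1 receptor antagonist), Il1r2 (a decoy receptor for interleukin-1), Ccr1 (a chemokine receptor), Hdc (histidine decarboxylase, which makes histamine) and Cstdc4 (a cystatin-domain gene). Between 87.7% and 97.1% of their UMIs came from the 37 members. Il1rn was at 4.45 CPM in naive lungs, 377 CPM after 2 hours and 63.4 CPM after 3 days, with 31.2 CPM at 2 hours in the other 129 members. Hdc was at 14.8, 446 and 55.1 CPM, with 18.7 CPM in the 129 members, and its ratio in them of 0.33 had an interval from -2.17 to 2.29. The remaining gene, the histone gene Hist1h3e, was at 1.48, 147 and 11.7 CPM, and 14.7% of its UMIs lay in the 37 members. Hist1h3e was higher at 2 hours in lymphocytes too, by 5.39 beside 6.63 (4.06 to 11.98) in NCMs.

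Chemokine ligands as a list of 15 genes summed to 782 CPM in naive lungs, 6414 CPM after 2 hours and 1717 CPM after 3 days. At 2 hours 6 of the 7 with enough UMIs were higher past 2-fold and 0 lower, and at 3 days 6 of 11 were higher and 0 lower, beside 6.95% and 10.2% of all genes higher. The log2 ratio of the sum was 3.04 (2.89 to 3.18) at 2 hours and 1.13 (1.01 to 1.27) at 3 days, beside 0.89 and 0.40 in lymphocytes and 2.06 and 0.14 in CMs. In the 129 members with little S100a8 and S100a9 RNA the sum was 3527 CPM at 2 hours, with a ratio of 2.17 (2.00 to 2.35), and 3 of 5 genes were higher. In the 407 such members at 3 days the ratio was 0.96 (0.83 to 1.09), no longer past 2-fold, and 4 of 10 genes were higher. Ccl6, a chemokine of myeloid cells, was at 497, 1962 and 741 CPM, with a ratio of 1.98 (1.77 to 2.19) at 2 hours and of -0.47 in lymphocytes. Unlike Cxcl2, Ccl6 was as high in the 129 members (2119 CPM, in 89 cells). Thinned to 500 UMIs, it was found in 19.4%, 47.6% and 28.4% of members and in 2.17%, 2.12% and 4.70% of lymphocytes. Ccl4, a chemokine of activated myeloid cells, was at 31.2, 282 and 64.0 CPM, and was at 24.9 CPM at 2 hours in the 129 members. The naive level of Ccl4 was that of 1 cell with 20 of its 21 UMIs, and was 1.52 CPM without it.

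Ccl5, a chemokine of cytotoxic lymphocytes, was at 34.1 CPM in naive lungs, 554 CPM after 2 hours and 21.1 CPM after 3 days. Its UMIs at 2 hours lay in 11 members, of which 1 held 31.2%, and Gzma, the NK and T cell protease, was found in 6. Among members at 2 hours that both had little S100a8 and S100a9 RNA and were nearest to the NCM profile, Ccl5 was at 33.1 CPM, close to its naive level. The nearest profile was found with Ccl5 among its genes, so this lower level was in part set by the selection. The part that other cells' RNA took in Ccl5 was not tested further.

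Genes of the NF-κB pathway and inflammatory cytokines lay on both sides at 2 hours. Their sum had a ratio of 0.45 (0.35 to 0.55) at 2 hours over all members and of -0.25 (-0.38 to -0.11) over the 129, so its direction turned without the 37 members. Of 18 tested, 5 were higher past 2-fold and 2 lower, with a median of -0.20, beside 6.95% and 35.4% of all genes, and in the 129 members 1 of 17 was higher and 7 lower. At 3 days 7 of 23 were higher and 0 lower, with a median of 0.31, beside 10.2% and 13.1% of all genes. The sum at 3 days had a ratio of 0.38 (0.33 to 0.44), and in the 407 members 6 of 23 were higher and 0 lower. Il1b, the cytokine interleukin-1β, was at 493 CPM in naive lungs, 1598 CPM after 2 hours and 1635 CPM after 3 days. Its ratios were 1.70 (1.48 to 1.92) at 2 hours and 1.73 (1.57 to 1.89) at 3 days, below those of 3.56 and 3.46 in lymphocytes, where it was at 38.1, 448 and 419 CPM. In CMs Il1b was at 547, 1381 and 1073 CPM. In the members with little S100a8 and S100a9 RNA, Il1b was at 773 CPM after 2 hours and 1500 CPM after 3 days. The part of other cells' RNA in Il1b was not tested. Ptgs2, the inducible cyclooxygenase COX-2, was at 1.48, 78.0 and 65.4 CPM, with 12.5 CPM at 2 hours in the 129 members, and its ratio at 3 days of 5.46 (2.97 to 10.77) stood beside 5.33 in lymphocytes. Nfkb1, a subunit of NF-κB, was at 592, 91.0 and 341 CPM, with a ratio of -2.70 (-3.41 to -2.07) at 2 hours and of -1.74 in lymphocytes.

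**Figure D4:**
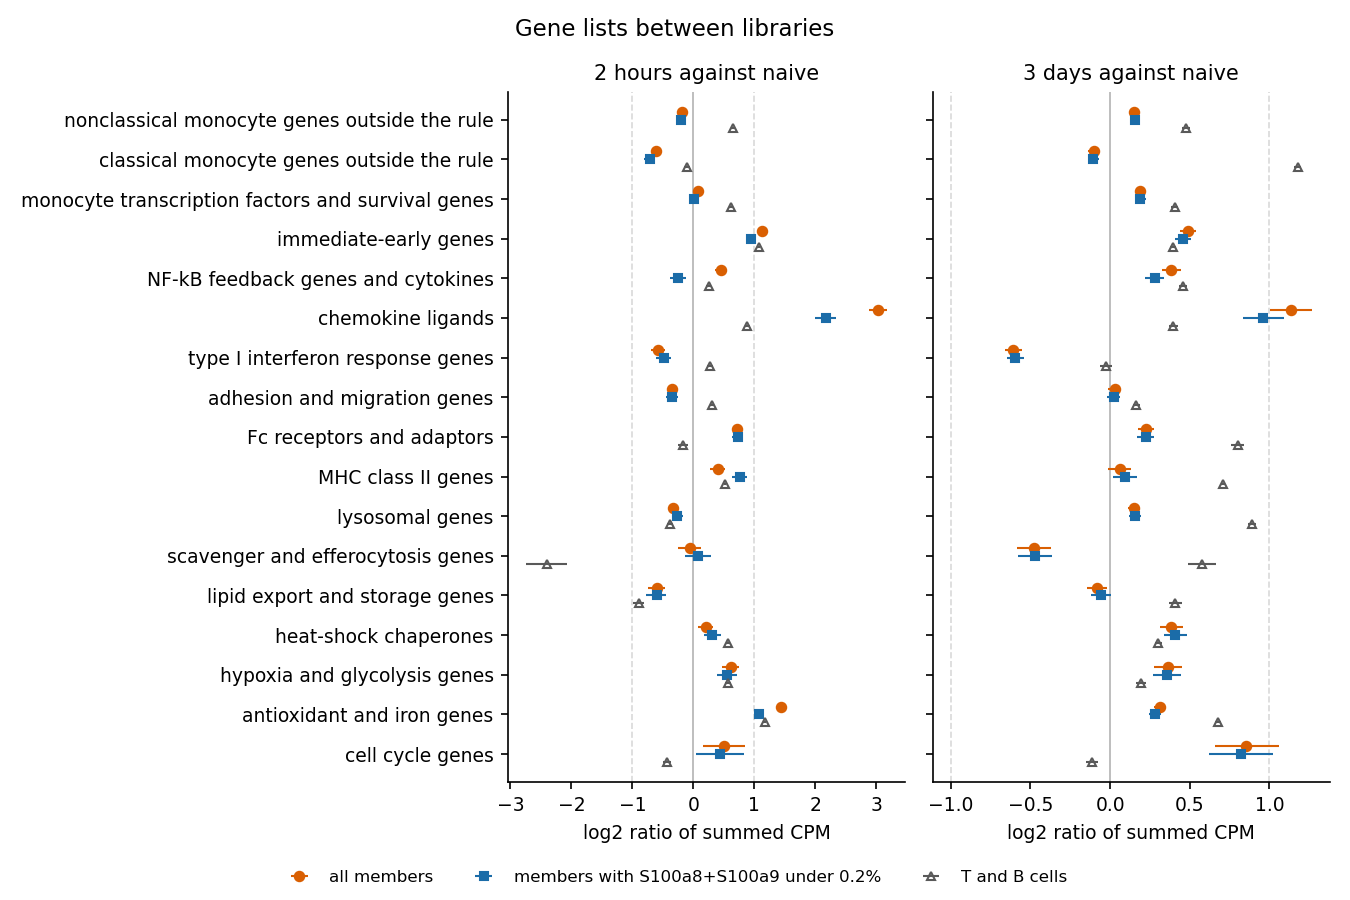
Log2 ratio of the summed CPM of 17 gene lists, 2 hours to naive (left panel) and 3 days to naive (right panel), in all NCMs (orange), NCMs with under 0.2% of UMIs from S100a8 and S100a9 (blue) and T and B cells (grey triangles), with 95% intervals as bars. Chemokine ligands were the farthest to the right at 2 hours (3.04), and most lists lay between -1 and 1 at 3 days.

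Immediate-early genes respond to stimuli within minutes. The list of 22 genes summed to 5775 CPM in naive lungs, 12646 CPM after 2 hours and 8111 CPM after 3 days. At 2 hours 12 of 20 were higher past 2-fold and 0 lower, with a median of 1.29, beside 6.95% of all genes higher, and 11 of 20 were higher and 1 lower in the 129 members. The ratio of the sum at 2 hours was 1.13 (1.06 to 1.20), and in the 129 members it was 0.95 (0.87 to 1.03), no longer past 2-fold. The sum had a ratio of 1.07 in lymphocytes and 0.75 in CMs at 2 hours. In NCMs it was 0.49 (0.44 to 0.54) at 3 days, beside 0.39 in lymphocytes and -0.10 in CMs. Fos, a subunit of the factor AP-1, was at 319, 1247 and 446 CPM, with a ratio of 1.97 (1.71 to 2.23) at 2 hours beside 2.95 in lymphocytes. Atf3, a stress-induced factor that restrains cytokine genes, was at 49.0, 325 and 147 CPM, with ratios of 2.73 (2.12 to 3.37) and 1.58 (1.08 to 2.14). In lymphocytes Atf3 had ratios of 0.76 and 0.57, so it differed by more in NCMs. Egr1, an early growth response factor, was at 31.2, 403 and 215 CPM, with 218 CPM at 2 hours in the 129 members and a ratio at 3 days of 2.79 (2.17 to 3.49) against 1.23 in lymphocytes. Without the naive member that held 52.4% of its UMIs, Egr1 was at 15.2 CPM in naive lungs and that ratio was 3.82 (2.94 to 4.89). At 3 days 6 of 22 genes of the list were higher and 0 lower, beside 10.2% and 13.1% of all genes.

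Stress genes were read against the same 6.95% of all genes higher and 35.4% lower at 2 hours, shares that changed with thinning as given above. Of 15 antioxidant and iron genes, 3 of 11 were higher past 2-fold at 2 hours and 0 lower, and at 3 days 0 of 13 were past 2-fold either way, beside 10.2% of all genes higher and 13.1% lower. Ftl1, the light chain of the iron store ferritin, was at 2883 CPM in naive lungs, 7991 CPM after 2 hours and 3254 CPM after 3 days. Its ratio at 2 hours was 1.47 (1.38 to 1.56), beside 1.26 in lymphocytes and 1.36 in the 129 members. Fth1, the heavy chain, was at 2934, 10871 and 3665 CPM, with 6556 CPM at 2 hours in the 129 members. Both ferritin chains were highest at 2 hours. Slc7a11, a cystine transporter, was at 38.6, 355 and 59.4 CPM, and its ratio of 3.20 (2.55 to 3.90) at 2 hours was 0.69 (-0.52 to 1.79) in the 129 members, or 1.36 (0.06 to 2.59) without the naive member that held 38.5% of its UMIs. Among the heat-shock chaperones 4 of 10 were higher at 2 hours and 0 lower. Dnajb1, a cochaperone of HSP70, was at 26.7, 165 and 49.1 CPM, with a ratio of 2.62 (1.78 to 3.52) beside 2.96 in lymphocytes. Of hypoxia and glycolysis genes 1 of 12, Gapdh, was higher and 1 lower. Gapdh, a glycolytic enzyme, was at 469, 1347 and 714 CPM, with a ratio of 1.52 (1.29 to 1.75) beside 1.30 in lymphocytes.

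More type I interferon response genes were lower than higher after transplantation. The list summed to 5039 CPM in naive lungs, 3378 CPM after 2 hours and 3308 CPM after 3 days. At 2 hours 7 of 13 were lower past 2-fold and 1 higher, with a median of -1.06, beside 35.4% of all genes lower, and at 3 days 6 of 17 were lower and 0 higher, with a median of -0.76, beside 13.1% of all genes lower. The ratio of the sum was -0.58 (-0.69 to -0.46) at 2 hours and -0.61 (-0.66 to -0.55) at 3 days, beside 0.27 and -0.03 in lymphocytes. CMs had -0.50 and -0.81. The sum was lower in both monocyte classes, whereas in lymphocytes it was higher at 2 hours and within counting error of the naive level at 3 days. Single genes differed in lymphocytes. Ifitm3, which blocks virus entry, was at 37.7, 63.2 and 271 CPM in lymphocytes, whereas Usp18, Ifit2 and Oas1a were lower in them at 3 days, by ratios of -1.07, -1.63 and -1.40. Ifi27l2a, an interferon-induced mitochondrial protein, was at 994, 446 and 314 CPM, with a ratio at 3 days of -1.66 (-1.80 to -1.52) beside -0.71 in lymphocytes. Oas1a, which senses double-stranded RNA, was at 46.0, 4.33 and 4.28 CPM, with a ratio at 3 days of -3.42 (-4.42 to -2.49). Isg15, a ubiquitin-like modifier, was the exception at 2 hours, with 22.3, 117 and 19.7 CPM, and it was at 18.7 CPM at 2 hours in the 129 members.

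The promoters of these genes were searched for a motif. The core of the interferon response element was searched as GAAA, any 2 bases and GAAA again, on both strands of the 300 bases from 250 before to 50 after each gene's start, in RefSeq sequence of GRCm38.p6. It was found in 10 of 17 listed genes with a promoter there (58.8%), against 3.99% of all 27025 genes and 3.44% of their 32851 promoters. A match is a description of the letters and not of a bound site. A pair of stretches is printed below from genes that were lower in NCMs than in CMs, of which Bst2 was picked after its values were seen, with 10 matched bases in capitals. The Isg15 promoter holds 3 matches and the Bst2 promoter 2, some of which overlap, and 1 of each is in capitals. The Isg15 stretch is chr4:156200867-156200916 on the minus strand, with the match starting 78 bases before the gene's start, and the Bst2 stretch is chr8:71537573-71537622 on the minus strand, with the match 130 bases before the start.
Isg15: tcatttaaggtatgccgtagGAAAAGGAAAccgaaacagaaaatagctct
Bst2: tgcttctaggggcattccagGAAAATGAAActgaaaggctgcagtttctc
Bst2, a membrane protein that holds budding viruses, was at 107 CPM in naive NCMs, 34.7 CPM after 2 hours and 52.6 CPM after 3 days. Its log2 ratio of NCMs to CMs was -1.23, -2.11 and -1.09. For Isg15 that ratio was -3.28, -0.23 and -2.21.

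Adhesion and migration genes summed to 8777, 6912 and 8952 CPM, a ratio of -0.34 (-0.43 to -0.26) at 2 hours and of 0.03 (-0.01 to 0.07) at 3 days. At 2 hours 2 of 16 were higher past 2-fold and 5 lower, near the 6.95% and 35.4% of all genes. At 3 days 1 of 19 was higher and 0 lower, beside 10.2% and 13.1%. Cxcr4, the receptor for CXCL12 that holds leukocytes in bone marrow and lung, was at 392 CPM in naive lungs, 2001 CPM after 2 hours and 425 CPM after 3 days. Its ratio at 2 hours was 2.35 (2.13 to 2.58), and at 3 days it was 0.12 (-0.07 to 0.31), which was not distinguishable from the naive level. Cxcr4 was as high in the 129 members, at 2025 CPM in 80 cells. Thinned to 500 UMIs, it was found in 14.5%, 50% and 16.4% of members and in 6.12%, 33.3% and 11.7% of lymphocytes, whose ratio at 2 hours was 3.49. Itgal, the α chain of LFA-1, was at 1445, 442 and 1463 CPM. The ratio of Itgal at 2 hours was -1.71 (-2.02 to -1.41), and in lymphocytes it was -1.72. Spn, which encodes CD43, was at 585, 256 and 877 CPM, with ratios of -1.19 (-1.61 to -0.80) and 0.58 (0.43 to 0.74). Pecam1, an adhesion molecule of endothelium and leukocytes, was at 208, 47.6 and 128 CPM.

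Genes of lipid handling and clearance gave single differences. Cd36, a scavenger receptor for lipids and dying cells, was at 806 CPM in naive lungs, 897 CPM after 2 hours and 396 CPM after 3 days. Its ratio at 3 days was -1.03 (-1.17 to -0.88), against 0.90 in lymphocytes, where it was found in under 2% of cells thinned to 500 UMIs. Thinned in the same way, Cd36 was found in 30.6%, 38.6% and 20.2% of members, lowest at 3 days. Abcg1, a cholesterol exporter, was at 168, 546 and 212 CPM, with a ratio at 2 hours of 1.70 (1.32 to 2.08) against -0.60 in lymphocytes and 1.82 in the 129 members. Apoe, a lipid carrier protein, was at 2054, 996 and 1970 CPM. Of the 11 lipid export and storage genes 1 of 9 was higher and 4 lower at 2 hours, beside 6.95% and 35.4% of all genes, and 1 of 11 was higher and 0 lower at 3 days, beside 10.2% and 13.1%. Of the scavenger genes 0 of 3 were higher and 1 lower at 2 hours, and 2 of 6 were higher and 2 lower at 3 days.

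Class II MHC and lysosomal genes were mostly within 2-fold, as were most of all genes (6.95% higher and 35.4% lower at 2 hours, 10.2% and 13.1% at 3 days), and Fc receptor genes were so at 3 days. Of the class II MHC genes 0 of 6 were higher and 1 lower at 2 hours, and 1 of 7 was higher and 0 lower at 3 days. Cd74, the invariant chain, was at 1598, 2451 and 1401 CPM. Of the 7 Fc receptor and adaptor genes 2 were higher and 2 lower at 2 hours, and 0 were past 2-fold at 3 days. Fcgr4, the activating Fc receptor that marks NCMs, was at 317 CPM in naive lungs, 398 CPM after 2 hours and 517.5 CPM after 3 days, a ratio at 3 days of 0.70 (0.50 to 0.92). Of the lysosomal genes 0 of 17 were higher and 3 lower at 2 hours, and 1 of 18 was higher and 0 lower at 3 days. Cell cycle genes were low, at 335, 476 and 607 CPM. Their sum at 3 days had a ratio of 0.86 (0.66 to 1.06), beside -0.12 in lymphocytes. Hmgb2 was found in 86.6% of members at 3 days, whereas Cdk1, Birc5, Ccnb1, Ccnb2 and Cenpf were each found in 0.704% or fewer. The sum is thus no measure of dividing cells. Of the cell cycle genes with enough UMIs, 0 of 2 were past 2-fold at 2 hours. At 3 days 1 of 6 was higher and 0 lower, beside 10.2% and 13.1% of all genes. Pcna, the clamp of DNA polymerase, was at 97.9, 130 and 169 CPM.

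The genes lowest after transplantation were also low in lymphocytes of the same libraries. Lrmda, a gene tied to melanocyte differentiation, was at 1021 CPM in naive NCMs, 4.33 CPM after 2 hours and 3.71 CPM after 3 days. Its ratio was -7.88 (-13.19 to -5.40) at 2 hours and -8.10 (-9.02 to -7.32) at 3 days, and -6.79 and -6.45 in lymphocytes. Gab2, a docking protein of cytokine receptors, was at 1935, 65.0 and 44.6 CPM, with 31.2 CPM at 2 hours in the 129 members and a ratio at 3 days of -5.44 (-5.69 to -5.20) against -2.89 in lymphocytes. Grk5, a kinase that silences G protein-coupled receptors, was at 1199, 47.6 and 112 CPM, and Etv6, an ETS-family repressor, was at 1033, 69.3 and 125 CPM. The naming rule further took Cdk8, Fam172a, Pstpip2 and Dennd1a at 2 hours and Pde7b, Morrbid, Plxdc2, Plcb1, March3 and Hdac8 at 3 days. Each of these genes had a ratio in lymphocytes of -3.30 or lower, and the naive library is the one counted with the other Cell Ranger version. The part of the counting software in these differences was not tested.

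At 3 days after reperfusion, Jaml, a junctional adhesion molecule of leukocytes, was at 43.7 CPM against 7.42 CPM in the naive library and 56.3 CPM at 2 hours, where the 129 members had 24.9 CPM. Its ratio to the naive library was 2.56 (1.30 to 4.20), against 0.90 in lymphocytes and 3.12 in CMs. Cxcl2, Il1rn, Il1r2 and Ccr1 were again among the genes named as higher, and Egr1, not named at 2 hours, was named here. Cxcl2 in the 407 members with little S100a8 and S100a9 RNA had a ratio at 3 days of 3.19, beside 3.64 in all members. In lymphocytes it was 2.49 and in CMs 2.57. Cxcl2 in NCMs thus depended less on members with more of that RNA than it did at 2 hours. It still lay in few cells at 3 days, where the 36 of 426 members with at least 5 Cxcl2 UMIs held 83.7% of them. Without the naive member that held most Cxcl2 UMIs, its ratio was 4.61 in the 407 members and 5.05 in all members. The other 2 genes named were Ncbp2 (2.97, 26.0 and 24.6 CPM), part of the nuclear cap-binding complex, and Mepce (13.4, 26.0 and 55.7 CPM), which caps the 7SK RNA.

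From 2 hours to 3 days, the 8 genes named as higher were all lowest at 2 hours among the 3 libraries. Mbp, a gene for myelin basic protein that leukocytes also transcribe, was at 457 CPM in naive lungs, 69.3 CPM after 2 hours and 390 CPM after 3 days. Clec12a, an inhibitory lectin receptor of myeloid cells, was at 154, 17.3 and 137 CPM. Pdgfb, a growth factor for vessel wall cells, was at 84.6, 4.33 and 67.7 CPM. The rule also took Capn2, Dgkh, Arhgef3, Degs1 and Avpi1 as higher at 3 days. As lower it took Ccl5, Cxcl3, Hdc and Mmp8, together with Rpgrip1, Dennd5b, Arap2 and Tmem80. Tmem80 is a case of a single cell, since 68.6% of its UMIs at 2 hours came from 1 member. Mmp8, a neutrophil collagenase, was at 2.97, 95.3 and 6.28 CPM, with 24.9 CPM at 2 hours in the 129 members.

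NCMs were set beside CMs of the same library, which share its preparation and software. Both classes were cut out by their transcripts, so this is a description. In the naive library 755 of 5358 genes were higher in NCMs past 2-fold (14.1%) and 459 lower (8.57%). At 2 hours 276 of 1872 genes were higher (14.7%) and 146 lower (7.8%). At 3 days 1047 of 9679 genes were higher (10.8%) and 887 lower (9.16%). Of the NCM genes that the rule did not use, 17, 15 and 17 of 20 were higher and 0 were lower in each library. Of CM genes outside the rule 0 were higher, and 13 of 17, 12 of 15 and 14 of 19 were lower. The list signs were thus those of the label in each library. The lists were chosen with earlier results of these data known, and the classes were cut by their markers. These counts therefore describe the label and do not support it.

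Cd36 headed the ranking of genes higher in NCMs over the 3 libraries. In CMs it was at 18.5 CPM in the naive library and 11.7 CPM at 3 days, and at 2 hours it had 0 of 153557 UMIs, which allows up to 19.5 CPM. The log2 ratio was 5.44 (4.63 to 6.40) in the naive library and 5.08 (4.77 to 5.40) at 3 days. Ear2, an eosinophil-associated ribonuclease, was at 594, 394 and 618 CPM in NCMs, against 43.2 CPM in CMs of the naive library and 51.3 CPM at 3 days. Pglyrp1, which binds bacterial peptidoglycan, was at 359, 615 and 544 CPM, against 24.7, 26.0 and 52.1 CPM. Cd9, a tetraspanin, was at 421, 385 and 438 CPM, against 44.8, 26.0 and 50.5 CPM. Itgax (the integrin chain CD11c), Ceacam1 (a carcinoembryonic antigen-related adhesion molecule), Grk3, Crebl2, Gfpt1 and Pag1 completed the 10 named. Nr4a1 was higher in NCMs by 2.29, 2.21 and 3.06 on the log2 scale.

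Fn1 and Thbs1 were among the 10 genes named as lower in NCMs than in CMs. Fn1, which encodes fibronectin, was at 113 CPM in naive NCMs, 26.0 CPM after 2 hours and 244 CPM after 3 days, against 1427, 1511 and 1800 CPM in CMs. Of its naive UMIs in NCMs 52.6% lay in 1 member, and Fn1 was at 54.5 CPM without it. Its ratio was -3.66 (-4.02 to -3.32), -5.86 (-7.32 to -4.72) and -2.88 (-2.98 to -2.78). Thbs1, thrombospondin-1, was at 199, 1152 and 373 CPM, against 1721, 4474 and 3115 CPM. Thbs1 was highest at 2 hours in both classes, also with the 654 CPM of the 129 members. Gas7, Nrg1, Tarm1, Mmp19, Wfdc17, S100a10, Morrbid and Msr1 were the other genes named as lower. The list counts that follow stand beside the shares over all genes given above (14.1%, 14.7% and 10.8% higher, and 8.57%, 7.8% and 9.16% lower). Type I interferon response genes were lower in NCMs for 10 of 15, 4 of 6 and 11 of 21 genes, and higher for 1, 0 and 0. Class II MHC genes were higher for 4 of 6, 3 of 4 and 4 of 7, and lower for 1, 0 and 1. Heat-shock chaperones were lower for 5 of 11, 0 of 8 and 0 of 11 genes, and higher for 0, 2 and 5. Chemokine ligands were lower in NCMs for 4 of 7, 3 of 8 and 3 of 12 genes, and higher for 0, 0 and 2.

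**Figure D5:**
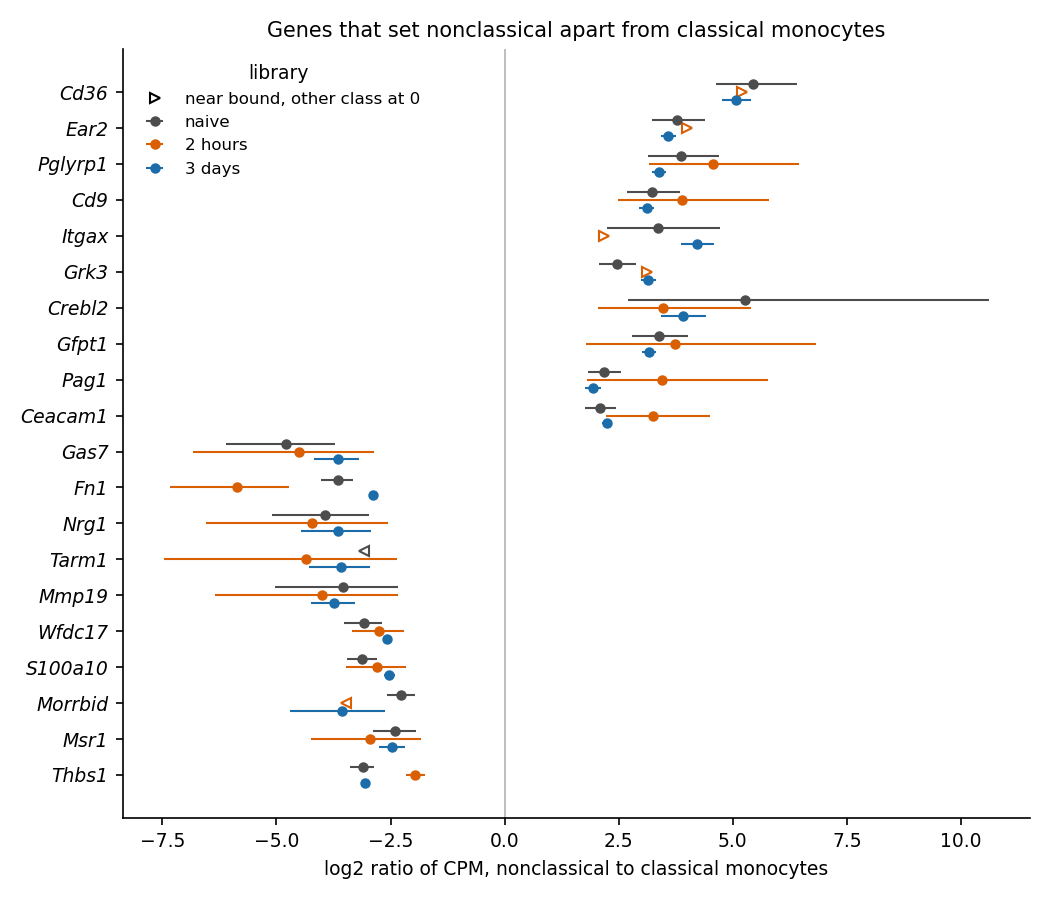
Log2 ratio of NCMs to CMs of the same library for the 10 genes named each way (points with 95% intervals; open arrowheads mark the near bound where 1 class had 0 UMIs). The genes lay on the same side of 0 in the 3 libraries, as the naming rule required, and Cd36 lay farthest to the right.

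Surface protein was read only in the transplant libraries, whose files held counts of 277 antibody features. Their names are written as human targets, and few of them gave counts in these mouse cells. Members held 12785 antibody UMIs at 2 hours (median 42.5 per cell) and 24471 at 3 days (median 40), against 8493 (median 99) and 78922 (median 172.5) in CMs. The antibody to CD44, the hyaluronan receptor, took 73.3% of antibody UMIs in NCMs and 43.0% in CMs at 2 hours. At 3 days it took 55.1% and 27.9%, so the share of CD44 was higher in NCMs at both times, by 0.77 (0.71 to 0.83) and 0.98 (0.95 to 1.01) on the log2 scale. As means per cell, CD44 was at 56.4 UMIs in NCMs and 42.9 in CMs at 2 hours, but at 31.7 and 49.6 at 3 days, the reverse order. The mean for CD44 alone in NCMs at 2 hours was above their median of 42.5 for all antibodies. Members with high counts thus raised that mean, and the order at 2 hours may rest on them. The transcript Cd44 differed little between the classes, with log2 ratios of 0.10 and -0.17. The antibody to the integrin chain β7 (ITGB7) took 9.003% in NCMs and 38.3% in CMs at 2 hours, and 17.8% and 39.9% at 3 days, lower in NCMs. Neutrophils had 77.8% and 59.6% for CD44 and 2.93% and 5.15% for ITGB7, so NCMs lay between neutrophils and CMs for both antibodies. The part of neutrophil protein in the values of NCMs was not tested. Such shares add up to a fixed total, so a higher share of one antibody lowers the others. The antibody to CX3CR1 gave 2 UMIs at 2 hours and 10 at 3 days in NCMs and 0 in CMs, with 5 and 19 in the more numerous lymphocytes. Whether this antibody binds the mouse protein was not tested, so its counts are no measure of the protein's level.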

How the data were processed

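The authors deposited unnormalized UMI counts per gene and barcode from Cell Ranger (7.1.0 for naive lungs, 6.0.0 for transplants, per the file headers). The submitters' processing notes name Cell Ranger 6 and Seurat 4, and a setting for intronic reads is not given in these sources. Members and gene lists were chosen with earlier results of these data known. UMIs were summed over the members of a library and divided by their total (CPM). Log2 ratios carry exact intervals conditional on the summed count, and shares carry Clopper-Pearson intervals. No p-value was computed, since each condition had 1 library. T, B and classical monocyte cells were called by marker UMIs. Named genes were the 6 markers, list members among the 4 most abundant or 4 farthest from 0, and the 8 genes per direction with the largest near bound that differed from lymphocytes by at least 1. Against CMs they were the 10 per direction with the largest near bound over the libraries. Some genes that these rules took are not reported here. Doublets were called by Scrublet in scanpy 1.11.5 but not removed. Python 3.11.15, numpy 2.4.6, scipy 1.17.1 and pandas 2.3.3 were used. The log2 ratios with their intervals, the intervals of shares and the thinning were tested on simulated data, and the other steps were not.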

Additional observations from a re-analysis of the deposited data

How the results depend on the processing

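No paired analysis was possible because each condition had 1 library. The share of NCMs was highest at 3 days and lowest at 2 hours under every rule run. With a marker limit of 0.30% it was 1.64%, 0.642% and 3.11%, with at least 2 marker genes 1.24% at 2 hours, and with the rule applied to 500 UMIs per cell 1.41%, 0.723% and 3.29%. Over members with S100a8 and S100a9 under 0.2% it was 1.25% at 2 hours, and over members nearest to the NCM profile 1.17% at 2 hours and 4.53% at 3 days. Thinned to 500 UMIs, 205 genes were higher and 107 lower past 2-fold at 2 hours than in the naive library, 354 and 215 at 3 days, and 478 and 120 at 3 days against 2 hours. With at least 50 UMIs there were 177 higher and 975 lower at 2 hours, 475 higher at 3 days, and 346 lower at 3 days against 2 hours. With the lymphocyte ratio subtracted, and genes with 0 UMIs in 1 library counted too, 660 were lower at 2 hours, 558 lower at 3 days, and 1445 higher and 887 lower at 3 days against 2 hours. Under the main settings, chemokine ligands (3.04), antioxidant and iron genes (1.44) and immediate-early genes (1.13) had sums past 2-fold at 2 hours. At 3 days only chemokine ligands (1.13) were past it against the naive library. From 2 hours to 3 days, chemokine ligands (-1.90) and antioxidant and iron genes (-1.12) were. At 3 days against the naive library, the number of lists past 2-fold was 0 with the 0.30% limit or with the CM ratio subtracted. It was 0 with little S100a8 and S100a9 RNA, and 2 when thinned or with the lymphocyte ratio subtracted. At 2 hours it was 1 with the CM ratio subtracted. At 3 days against 2 hours it was 0 with the CM ratio subtracted, and 1 with the 0.30% limit, with little S100a8 and S100a9 RNA or with members nearest to the NCM profile. Against CMs at 2 hours, 109 genes were higher with the 0.30% limit. The log2 ratio of the chemokine ligands from 2 hours to 3 days was -1.90 and became 0.0227 once the CM ratio was subtracted, and that of Hdc was -3.02 and became 0.515 in members with little S100a8 and S100a9 RNA, whose Hdc at 2 hours is 3 UMIs. Over all settings, the log2 ratio of a summed list changed sign in 67 of 510 cases, of which 21 with the CM ratio and 20 with the lymphocyte ratio subtracted, and in 1 of the 67 the ratio had been past 2-fold. The settings on S100a8 and S100a9 and on the nearest profile were chosen after the data had been seen. The depth of the 2-hour library limits what can be said of genes under about 20 UMIs, and 1 library per condition limits all comparisons between times.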
